A study of Homo sapiens with 6 samples.

Results

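Feedback genes and factors of beta-catenin signalling were examined in HEK293 cells, an established human embryonic kidney line, after inhibition of phosphatidylinositol 4-kinase alpha. The set was AXIN2, NKD1, RNF43, ZNRF3, SP5, NOTUM, LEF1, TCF7, DKK1 and CTNNB1, a set of named genes taken from the count table by symbol. All 10 were present once each among the 63140 genes of the count table. The study compared 3 libraries from cells given GSK-A1 at 100 nM for 24 h with 3 libraries from cells given the solvent DMSO alone. The compound blocks that kinase, the enzyme behind the plasma membrane's phosphatidylinositol 4-phosphate. Both groups were the unmodified line grown in DMEM with serum, and the treatment protocol describes the cultures as confluent. The labels name no added Wnt protein or other activator of the pathway. The titles number the libraries as biological replicates and say nothing more of how the cultures were kept apart, so the tests measure the spread between these libraries.

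In canonical Wnt signalling, a Wnt ligand engages a Frizzled receptor and its LRP5 or LRP6 coreceptor, and this stops a cytoplasmic destruction complex from marking beta-catenin for degradation. Stabilised beta-catenin enters the nucleus and binds TCF and LEF proteins at target genes. Several targets encode brakes on the pathway itself, at the receptor, in the destruction complex or outside the cell, so their mRNAs are widely read as a measure of pathway output. HEK293 cells respond to Wnt ligands and are a common host for reporter assays of the pathway.

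Total counts per library ran from 33040178 to 47777233, and library factors stayed within 0.993 and 1.00. GSK-A1 replicate 2 stood apart from its group. Across the 16754 genes tested, its log2 CPM correlated with the other GSK-A1 libraries at 0.994 and 0.995, against 0.997 between those 2, and calls that change without it are given beside the results. Of 6 genes usually present in HEK293, 5 were detected, with VIM at 1050 to 1284 CPM (counts scaled to the same adjusted library total) and NEFL at 713 to 794 CPM, while NEFM reached 0.381 CPM at most. None of 8 defining genes of blood, liver, endothelium, melanocytes, heart muscle or fibroblasts passed 8 counts in any library.

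Of 9 genes with enough counts to test, 1 was called with GSK-A1, the Wnt deacylase gene NOTUM, which rose 1.28-fold. The word called is used where edgeR's quasi-likelihood test, adjusted over all genes, gave a p below 0.05. Over all 16754 tested genes, 22.9% were called, 12.0% higher and 10.9% lower. The classical readout AXIN2 and the inhibitors NKD1, RNF43 and ZNRF3 had log2 fold changes between 0.02 and 0.08, and the transcription factor genes LEF1 and TCF7 had -0.11 and -0.16, none of them called. Upper-quartile library factors put AXIN2, NKD1 and RNF43 on the other side of 0, at -0.024, -0.019 and -0.021. The median over the 9 tested genes was 0.02, beside -0.01 over all tested genes. All 3 GSK-A1 libraries lay on one side of all 3 DMSO libraries for 3 of the 9, namely NOTUM and ZNRF3 on the higher side and TCF7 on the lower. Among all tested genes 40.5% had groups that did not overlap, 20.2% higher and 20.4% lower. SP5 had no counts, and DKK1 had too few for a change of ordinary size to be judged.

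**Figure D1:**
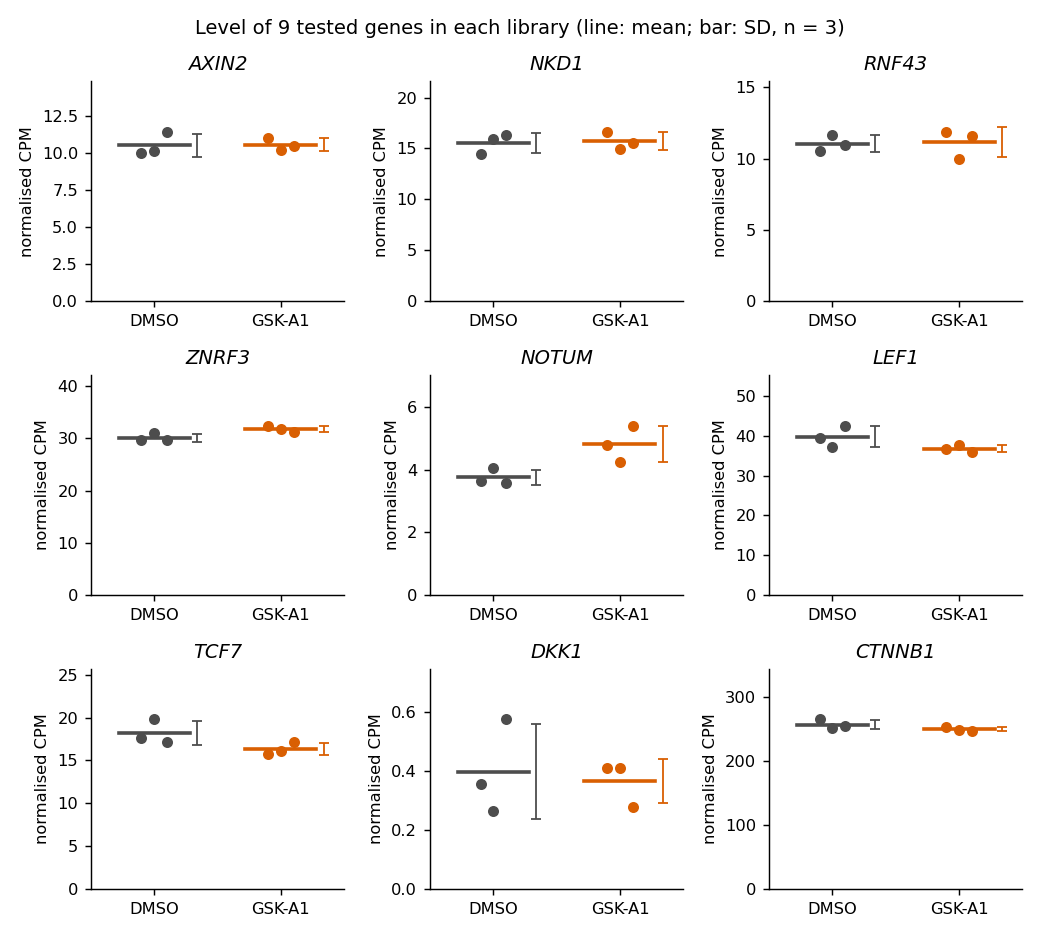
Normalised level in CPM of the 9 tested genes in each DMSO (grey) and GSK-A1 (orange) library, with each axis starting at 0. Lines are means and bars are SD of n = 3. The groups are separate for NOTUM, ZNRF3 and TCF7 and overlap for the other genes.

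CTNNB1 (ENSG00000168036, chromosome 3, 41194741 to 41260096) encodes beta-catenin, the protein that carries the signal and that also links cadherins to the cytoskeleton. Its activity is set mainly by protein stability. Its level in the 3 DMSO libraries, in the order of their numbers, was 265, 252 and 254 CPM, and the GSK-A1 libraries had 253, 248 and 248 CPM. The highest GSK-A1 library lay above the lowest DMSO library, so the groups overlapped. On the log2 scale the difference was -0.04 ± 0.03 (SE), its 95% interval ran from -0.12 to 0.03, and it was not called (edgeR adjusted p = 0.406). At this depth, with 8431 to 12727 counts per library, a fold outside 0.922 to 1.02 lay beyond the interval. In bulk RNA, fewer expressing cells and less RNA per cell cannot be told apart.

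LEF1 and TCF7 encode DNA-binding partners of beta-catenin, and both genes are themselves targets of the pathway in several tissues. LEF1 (ENSG00000138795, chromosome 4, 108047545 to 108168956) had 39.5, 37.2 and 42.5 CPM with DMSO and 36.6, 37.8 and 36.0 CPM with GSK-A1. GSK-A1 replicate 2 reached above DMSO replicate 2, and otherwise the treated libraries were lower. The log2 fold change was -0.11 ± 0.05 (edgeR adjusted p = 0.147, 95% interval -0.22 to 0.0018). Without GSK-A1 replicate 2 it was -0.12 and passed the threshold (edgeR adjusted p = 0.0400).

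TCF7 (ENSG00000081059, chromosome 5, 134114711 to 134151865) had 17.6, 19.8 and 17.2 CPM with DMSO. With GSK-A1 it had 15.8, 16.1 and 17.2 CPM, and the closest libraries of the groups, DMSO replicate 3 and GSK-A1 replicate 3, were the same at this rounding. The log2 fold change was -0.16 ± 0.07 (edgeR adjusted p = 0.0888), and its 95% interval of -0.30 to -0.02 left out 0 before adjustment over all genes. Both LEF1 (-0.15, edgeR adjusted p = 0.0452) and TCF7 (-0.20, edgeR adjusted p = 0.0364) were called lower under upper-quartile library factors, which moved the middle of all genes down by 0.04 and left 33.3% of all calls higher in place of 52.3%.

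The other TCF genes, TCF7L1 and TCF7L2, had log2 fold changes of -0.11 ± 0.07 and -0.09 ± 0.05, so with the factors used here all 4 genes of the family lay below 0 and none was called. Per length, in CPM divided by kilobases of exon (RPKM), LEF1 was the most abundant of the family in DMSO cells at 7.41, followed by TCF7L2 at 4.43, TCF7L1 at 3.41 and TCF7 at 1.81. LEF1 gave 43.4% ± 1.6 of the family's summed RPKM in controls and 43.4% ± 1.2 in treated cells (SD, n = 3). TCF7 gave 10.6% ± 1.1 and 10.3% ± 0.4. The differences of the 4 shares were -0.36 to 0.33 percentage points. The log2 ratio of LEF1 to TCF7 counts was 1.13 ± 0.20 with DMSO and 1.17 ± 0.09 with GSK-A1. Ratios and shares are given as values, since an exact permutation test of 3 against 3 libraries allows no p below 0.1.

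AXIN2 and NKD1 encode inhibitors that act inside the cell. AXIN2 is an inducible scaffold of the destruction complex, and NKD1 binds Dishevelled. AXIN2 (ENSG00000168646, chromosome 17, 65528563 to 65561647) had 10.0, 10.1 and 11.4 CPM with DMSO and 11, 10.2 and 10.5 CPM with GSK-A1. The treated libraries lay inside the range of the controls. The log2 fold change was 0.02 ± 0.07 (edgeR adjusted p = 0.898), and the 95% interval allows a fold of 0.908 to 1.13. NKD1 (ENSG00000140807, chromosome 16, 50548330 to 50649249) had 14.4, 15.9 and 16.3 CPM with DMSO and 16.6, 14.9 and 15.6 CPM with GSK-A1. Its groups overlapped. The difference was 0.02 ± 0.07 in log2 units (edgeR adjusted p = 0.854), and the fold interval was 0.920 to 1.12.

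Each of these inhibitors has a relative that is not part of the feedback set. AXIN1, the constitutive scaffold, was the more abundant per length too, and had 76.1 ± 1.7 CPM in control and 81.7 ± 2.2 in treated cells (SD, n = 3; log2 fold change 0.10 ± 0.04, edgeR adjusted p = 0.0803). NKD2 had 38.5 ± 1.0 and 36.2 ± 3.3 CPM (-0.09 ± 0.06, edgeR adjusted p = 0.312). The log2 ratio of AXIN2 to AXIN1 counts was -2.86 ± 0.14 with DMSO and -2.95 ± 0.04 with GSK-A1, and that of NKD1 to NKD2 was -1.31 ± 0.10 and -1.20 ± 0.12. These ratios need no library factor.

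RNF43 and ZNRF3 encode transmembrane ubiquitin ligases that remove Frizzled receptors from the cell surface, and R-spondins acting through LGR receptors relieve that removal. RNF43 (ENSG00000108375, chromosome 17, 58352500 to 58417595) had 10.5, 11.7 and 11 CPM with DMSO and 11.9, 9.96 and 11.6 CPM with GSK-A1. The treated libraries held both the highest and the lowest value of the 6. The log2 fold change was 0.02 ± 0.08 (edgeR adjusted p = 0.886), with a fold interval of 0.905 to 1.14. ZNRF3 (ENSG00000183579, chromosome 22, 28883592 to 29057487) had the higher CPM, at 29.7, 31.0 and 29.6 with DMSO and 32.4, 31.8 and 31.2 with GSK-A1. All treated libraries were above all controls by a small margin, and the log2 fold change of 0.08 ± 0.05 was not called (edgeR adjusted p = 0.239, fold interval 0.986 to 1.13). The log2 ratio of ZNRF3 to RNF43 counts was 1.45 ± 0.05 with DMSO and 1.52 ± 0.14 with GSK-A1. A readthrough gene on the same strand shares 57.6% of the exonic length of RNF43, and reads there may have been dropped or split. Which of the 2 genes was more abundant is therefore uncertain.

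NOTUM encodes a secreted enzyme that strips the lipid from Wnt proteins and so inactivates them outside the cell. It lies on chromosome 17 (ENSG00000185269, 81952507 to 81961840). It had 3.65, 4.04 and 3.59 CPM with DMSO and 4.81, 4.25 and 5.41 CPM with GSK-A1, so the lowest treated library, replicate 2, lay just above the highest control. Group means were 3.76 ± 0.25 and 4.82 ± 0.58 CPM (SD, n = 3). The rise was 1.28-fold, with a 95% interval of 1.09 to 1.5, or 0.36 ± 0.11 as log2 (edgeR adjusted p = 0.0263). The call rested on 119 to 224 counts per library. It was lost in DESeq2 (0.36, adjusted p = 0.0550) and in 4 of the 6 fits that each left out 1 library. The edgeR adjusted p was 0.106 and 0.0933 when the omitted control was number 1 or 3, and 0.0682 and 0.0942 when the omitted treated library was number 1 or 3. The log2 fold change stayed between 0.28 and 0.43 in all 6. Changes larger than that of NOTUM in size were found in 13.7% of all tested genes.

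**Figure D2:**
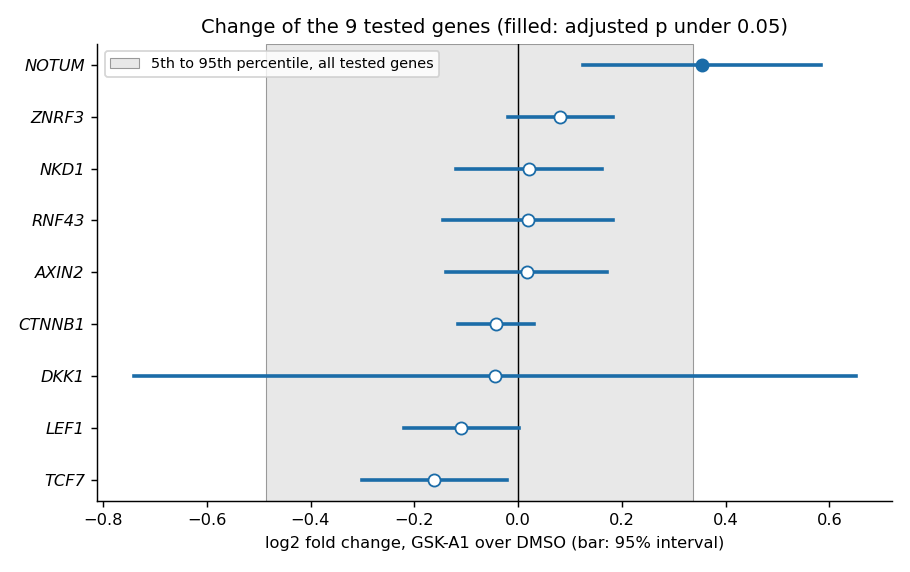
Log2 fold change of GSK-A1 over DMSO for the 9 tested genes, with 95% intervals as bars. The grey band spans the 5th to 95th percentile of all tested genes, -0.49 to 0.34. NOTUM, at 0.36, is the filled point, and DKK1 has the widest bar, from -0.74 to 0.65.

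DKK1 and SP5, both induced by Wnt signalling in many cell types, were the members at the bottom of the range. DKK1 encodes a secreted antagonist of LRP5 and LRP6, and SP5 encodes a zinc finger repressor. The 250 bases before the RefSeq start of SP5 and DKK1 are printed because they held matches to the word bound by TCF and LEF proteins although the genes gave few or no counts. The second TCF7 start is shown because it was the other window with a match. LEF1 is shown because its window had none and it was the most abundant feedback gene of the set. That window lies inside the gene, which on the minus strand begins at base 108168956 in GENCODE 29. Sequences are from RefSeq on GRCh38.p14, at chr2:170715087-170715336 (plus strand) for SP5, chr10:52314031-52314280 (plus) for DKK1, chr5:134123368-134123617 (plus) for TCF7 and chr4:108166302-108166551 (minus) for LEF1. Capitals mark CTTTG followed by 2 letters that are each A or T, on either strand.
SP5: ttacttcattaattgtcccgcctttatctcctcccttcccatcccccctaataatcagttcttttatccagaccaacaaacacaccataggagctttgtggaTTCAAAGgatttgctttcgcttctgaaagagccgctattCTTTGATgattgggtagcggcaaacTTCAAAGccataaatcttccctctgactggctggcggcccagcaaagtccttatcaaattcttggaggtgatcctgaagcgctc
DKK1: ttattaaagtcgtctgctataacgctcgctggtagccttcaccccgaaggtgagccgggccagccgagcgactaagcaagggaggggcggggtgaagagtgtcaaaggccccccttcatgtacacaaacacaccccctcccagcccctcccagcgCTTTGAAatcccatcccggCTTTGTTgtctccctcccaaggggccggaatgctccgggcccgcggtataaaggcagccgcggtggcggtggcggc
TCF7: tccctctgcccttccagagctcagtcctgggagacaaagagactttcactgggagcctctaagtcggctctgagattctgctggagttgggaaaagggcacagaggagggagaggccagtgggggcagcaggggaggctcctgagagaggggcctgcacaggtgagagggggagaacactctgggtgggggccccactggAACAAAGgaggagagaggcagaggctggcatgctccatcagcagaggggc
LEF1: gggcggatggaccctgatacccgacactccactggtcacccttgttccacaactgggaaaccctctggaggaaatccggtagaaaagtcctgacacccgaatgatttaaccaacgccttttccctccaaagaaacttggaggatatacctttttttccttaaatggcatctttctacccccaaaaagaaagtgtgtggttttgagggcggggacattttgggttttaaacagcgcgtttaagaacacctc

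SP5 held 3 matches, at 148, 109 and 84 bases before its start, DKK1 held 2, at 95 and 76 bases, and TCF7 held 1, at 50 bases. No match overlapped another. Of all 35116 windows of this length in the RefSeq table, 12.0% held at least 1 match, 1.21% at least 2 and 0.122% at least 3. Windows were found for 6 of the 10 genes. RNF43, CTNNB1, LEF1 and the first TCF7 start held no match, and AXIN2, NKD1, ZNRF3 and NOTUM were not matched to a window. The LEF1, CTNNB1 and TCF7 windows lay inside those genes as GENCODE 29 gives them. The bases before the outermost annotated starts of these genes were therefore not searched. A match describes letters only, and binding was not measured.

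SP5 (ENSG00000204335, chromosome 2, 170715351 to 170718078) had 0 counts in all 6 libraries and was not tested. A count of 0 allows up to 3 counts, or 0.0626 to 0.0905 CPM across these libraries, for counting error only. DKK1 (ENSG00000107984, chromosome 10, 52314296 to 52318042) had 17, 12 and 19 counts with DMSO and 19, 14 and 10 with GSK-A1, or 0.264 to 0.573 CPM and 0.277 to 0.410 CPM. The ranges lay one inside the other, and the 95% interval of the log2 fold change (-0.04 ± 0.33, edgeR adjusted p = 0.941) ran from -0.74 to 0.65. A fold anywhere from 0.598 to 1.57 was thus compatible with the counts, which makes DKK1 too low to judge.

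The order of the set by level per length was the same at the top in both groups. With DMSO, CTNNB1 led at 21.6 ± 0.6 RPKM, followed by LEF1 at 7.41 ± 0.50, ZNRF3 at 4.32 ± 0.11, AXIN2 at 2.02 ± 0.15, TCF7 at 1.81 ± 0.14, RNF43 at 1.47 ± 0.08, NOTUM at 1.25 ± 0.08, NKD1 at 0.893 ± 0.057 and DKK1 at 0.180 ± 0.072 (SD, n = 3). Only AXIN2 and TCF7 were neighbours whose DMSO libraries overlapped, and TCF7 came before AXIN2 when the longest transcript replaced the summed exons as length. With GSK-A1, TCF7 (1.62 ± 0.07 RPKM), NOTUM (1.60 ± 0.19) and RNF43 (1.48 ± 0.14) could no longer be ordered beyond their spread. Levels of AXIN2 and RNF43 per length are uncertain, since GENCODE 29 lists readthrough genes on the same strand that share 25.2% and 57.6% of their exonic length, and reads in shared exons may have been dropped or split. Those readthrough genes themselves had at most 1 and 8 counts in a library. SUPT4H1, which shares 1.91% of RNF43 on the same strand, had 144 to 242 counts. On the opposite strand, exons of SKP1 overlapped 2.09% of TCF7, and SKP1 had 625 to 910 counts, beside 548 to 900 for TCF7. Antisense genes overlapped 20.3% of RNF43, 9.61% of DKK1 and 5.20% of LEF1. They had at most 9, 10 and 19 counts, far below RNF43 and LEF1, while PRKG1-AS1 at its highest equalled the lowest count of DKK1. Of the 50-base stretches in the longest transcripts of RNF43 and AXIN2, 76.3% and 30.2% also occurred in transcripts of their readthrough genes. For SP5, ZNRF3 and NKD1, 1.11%, 0.559% and 0.0117% occurred in other genes. No stretch of 50 bases in the longest transcript of NOTUM, LEF1, TCF7, DKK1 or CTNNB1 occurred in another gene's transcripts.

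**Figure D3:**
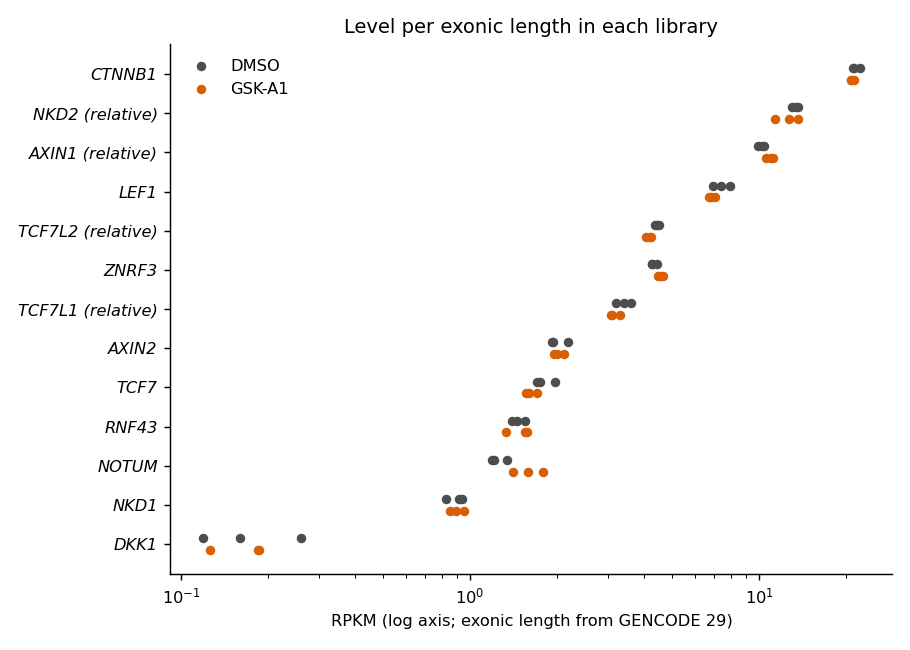
RPKM on a log axis in each DMSO (grey) and GSK-A1 (orange) library for the 9 detected genes and 4 relatives, ordered by the DMSO mean. CTNNB1 is highest at about 21.6 RPKM, and the treated points of NOTUM lie to the right of its controls.

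To describe which genes shared the pattern of AXIN2 over the 6 libraries, genes were ranked by the root mean square difference of centred log2 CPM. The closest were KMT2D (0.0195), ZNF585A (0.0207), SMPD1 (0.0276), SPATA2 (0.0281) and HIRIP3 (0.0302), against a median of 0.129 over tested genes. These were picked as the smallest differences among 16754 genes, from a gene that was not called. Shared regulation was not tested.

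The rest of the pathway was read through 7 lists grouped by role, of which 112 of 140 genes were tested and 29 called, 16 higher and 13 lower (25.9%, beside 22.9% of all genes). Without GSK-A1 replicate 2 the count was 35, and it was 14, 14 and 13 when control 1, 2 or 3 was left out and 19 when treated library 1 was. Among Wnt ligands, 14 of 19 were tested, 2 were called higher and 1 lower, and the median of the log2 fold changes was -0.01. The ligand share called was 21.4%, beside 22.9% of all genes. WNT5A, a ligand known mainly for signalling without beta-catenin, fell from 30.2 ± 1.3 to 26.1 ± 1.1 CPM (SD, n = 3; -0.21 ± 0.05, edgeR adjusted p = 0.0101). WNT11, of the same kind, rose from 2.72 ± 0.17 to 3.57 ± 0.31 CPM (0.37 ± 0.11, edgeR adjusted p = 0.0265). WNT9B had 5 to 12 counts with DMSO and 12 to 21 with GSK-A1 (1.01 ± 0.34, edgeR adjusted p = 0.0436). WNT3 and WNT3A, which act through beta-catenin, had log2 fold changes of -0.02 and -0.05 and were not called. The WNT11 call was lost in DESeq2 (adjusted p = 0.0717). The list had 0 or 1 call in place of 3 in every fit that left out a library except that without treated library 3, and 1 in DESeq2. Of these 3 calls, that of WNT5A held in 3 of the 6 fits with a library left out, WNT11 in 2 and WNT9B in 1 (highest edgeR adjusted p 0.0764, 0.0985 and 0.142).

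Of 20 genes for secretion, receptors and coreceptors, 19 were tested, with 1 called higher, 1 lower and a median of 0.02. That is 10.5% called, beside 22.9% of all genes. The 2 calls became 1 without control 2 or 3, and 4 without treated library 2 or 3 or with the GC trend removed. The Frizzled receptor gene FZD7 rose from 32.9 ± 1.2 to 39.5 ± 1.1 CPM (SD, n = 3; 0.26 ± 0.05, edgeR adjusted p = 0.00113), a call that held in all 6 fits with 1 library left out. FZD4 fell from 36.1 ± 2.6 to 31.2 ± 0.7 CPM (-0.21 ± 0.06, edgeR adjusted p = 0.0125), although exons of PRSS23 on the opposite strand cover 19.0% of its exonic length. LGR4 and LGR5, the receptors through which R-spondins act on ZNRF3 and RNF43, were present at 44.8 ± 0.9 and 46.5 ± 1.6 CPM with DMSO and had log2 fold changes of 0.02 and -0.04. Of 22 extracellular modulators only 10 had enough counts. The share called was 20%, beside 22.9% of all genes, of which 12.0% were called higher and 10.9% lower. Among the 10, 0 were called higher and 2 lower by edgeR (median -0.20). They were TRABD2B, encoding a membrane protease of Wnt proteins, at 5.89 ± 0.51 and 4.26 ± 0.32 CPM (-0.46 ± 0.10, edgeR adjusted p = 0.00348), and the DKK1 receptor gene KREMEN1 (-0.15 ± 0.04, edgeR adjusted p = 0.0209). The extracellular list had 1 call without control 2 or 3 or treated library 3. FZD4 and KREMEN1 kept their calls in 3 and 2 of the 6 fits with a library left out (highest edgeR adjusted p 0.0961 and 0.0873).

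All 24 genes of the destruction complex and cytoplasmic relay were tested, and 5 were called higher and 0 lower by edgeR, with a median of 0.09. The share called was 20.8%, beside 22.9% of all genes, of which 12.0% were called higher and 10.9% lower. APC, the scaffold that presents beta-catenin for phosphorylation, rose from 55.3 ± 2.5 to 64.5 ± 1.8 CPM (SD, n = 3; 0.22 ± 0.05, edgeR adjusted p = 0.00243). TNKS, whose product tags AXIN proteins for degradation, rose from 93.1 ± 0.7 to 106.5 ± 4.3 CPM (0.19 ± 0.04, edgeR adjusted p = 0.00264). CSNK1E (0.18 ± 0.05) and FBXW11 (0.13 ± 0.04) were also called, but not under upper-quartile factors, and a readthrough gene shares 21.1% of the exonic length of CSNK1E. GSK3A and GSK3B, the kinases of the complex, had log2 fold changes of 0.02 and 0.03. Of 18 nuclear cofactors and repressors, 0 were called higher and 3 lower by edgeR (median -0.07). That is 16.7% called, beside 22.9% of all genes, of which 10.9% were called lower. A log2 fold change below 0 was found for 15 of the 18, and for 8803 of all 16754 genes. TLE5, of the Groucho family, fell from 183 ± 2 to 162 ± 7 CPM (-0.18 ± 0.04, edgeR adjusted p = 0.00310). TLE3, a corepressor (-0.12 ± 0.04), and BCL9, a coactivator that bridges beta-catenin to Pygopus (-0.21 ± 0.05), were called too. With a library left out, calls held in 1 of 6 fits for TLE3, 2 for CSNK1E and FBXW11, 4 for BCL9 and 6 for APC (highest edgeR adjusted p 0.108, 0.0794, 0.105, 0.0513 and 0.0304). Calls in the cytoplasmic list numbered 2 in each fit without a control or treated library 1, 8 without treated library 2, 3 with upper-quartile factors and 9 with the GC trend removed. Those in the nuclear list numbered 1 without control 1 or 3, 5 without treated library 2 and 6 with upper-quartile factors. TLE3 also lost its call with no count filter (edgeR adjusted p = 0.0813) and with the GC trend removed (0.0809).

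Another list held 24 further genes described as beta-catenin targets in various tissues. Of 18 tested, 11 were called (61.1%, beside 22.9% of all genes), 7 higher and 4 lower, with a median of 0.05. JUN rose from 319 ± 13 to 555 ± 38 CPM (SD, n = 3; 0.80 ± 0.05, edgeR adjusted p = 2.91e-08), CD44 from 3.68 ± 0.44 to 6.73 ± 0.07 CPM (0.86 ± 0.10) and MYC from 172 ± 2 to 208 ± 4 CPM (0.28 ± 0.03). CCND2, a D-type cyclin gene, rose from 54.9 ± 2.6 to 64.6 ± 1.4 CPM (0.24 ± 0.05). JUN and MYC are also immediate early genes of growth factor signalling. CCND1, often used beside AXIN2 as a readout, had 259.2 ± 3.8 and 260.3 ± 8.0 CPM (0.01 ± 0.04, edgeR adjusted p = 0.927). In place of 11, the list had 5, 7 and 6 calls when control 1, 2 or 3 was left out, 7 when treated library 3 was left out, and 7 in DESeq2, while JUN, CD44, MYC and CCND2 were called in each of the 6 edgeR fits that left out a library. The feedback set and this list were chosen with earlier results of these data known, so their shares called are descriptive. Whether the 2 lists differ was not tested.

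Cadherins and catenins, which share beta-catenin with the signalling pool at cell junctions, had 9 of 13 genes tested, 1 called higher and 2 lower (median 0.01). That is 33.3% called, beside 22.9% of all genes, of which 12.0% were called higher and 10.9% lower. The list had 1 call in all without control 1 or 2. CTNNA1, the alpha-catenin gene, rose from 367.6 ± 1.6 to 403.7 ± 7.0 CPM (SD, n = 3; 0.13 ± 0.03, edgeR adjusted p = 0.00693). JUP, encoding plakoglobin, the close relative of beta-catenin, fell from 81.9 ± 1.7 to 73.2 ± 3.6 CPM (-0.16 ± 0.04, edgeR adjusted p = 0.0139), a call lost when control 1 or 2 was left out (0.0762 and 0.0660). CDH2, the main cadherin gene here, had 93.9 ± 1.2 and 96.6 ± 3.2 CPM and was not called. CDH1 was below 1 CPM in both groups, at 0.821 ± 0.113 and 0.508 ± 0.065 (-0.71 ± 0.23, edgeR adjusted p = 0.0317), and its call held in 1 of the 6 fits that left out a library.

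**Figure D4:**
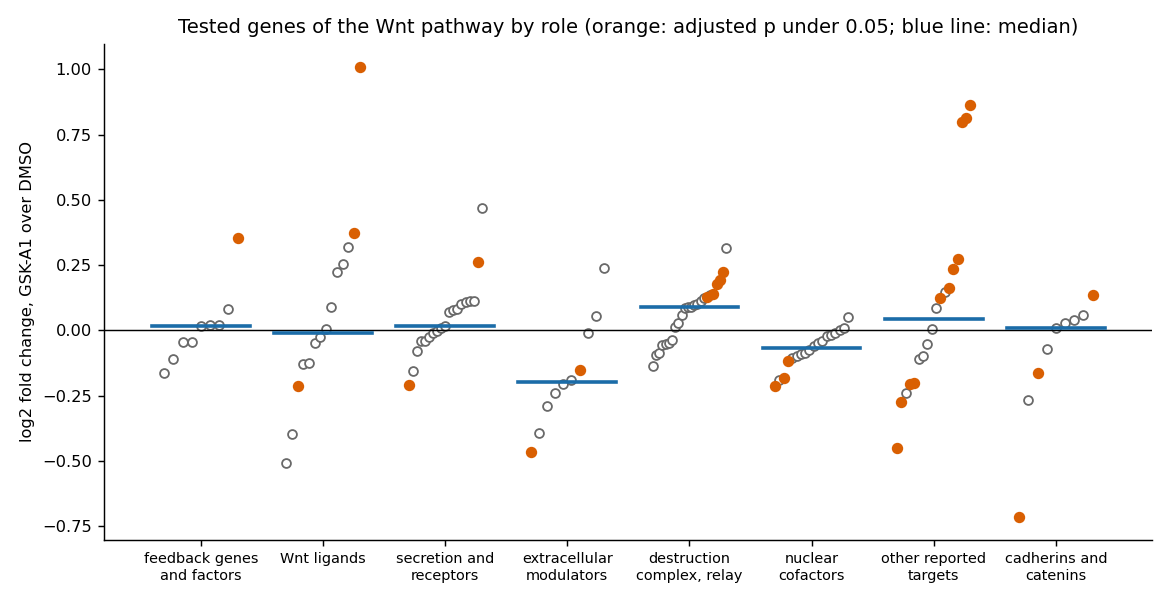
Log2 fold change of every tested gene of the feedback set and of 7 other Wnt pathway lists. Orange points passed an adjusted p of 0.05, open points did not, and blue lines are medians. The feedback set has 1 orange point among 9, and the list of other reported targets has 11 among 18. All lists were chosen with earlier results of these data known.

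**Figure D5:**
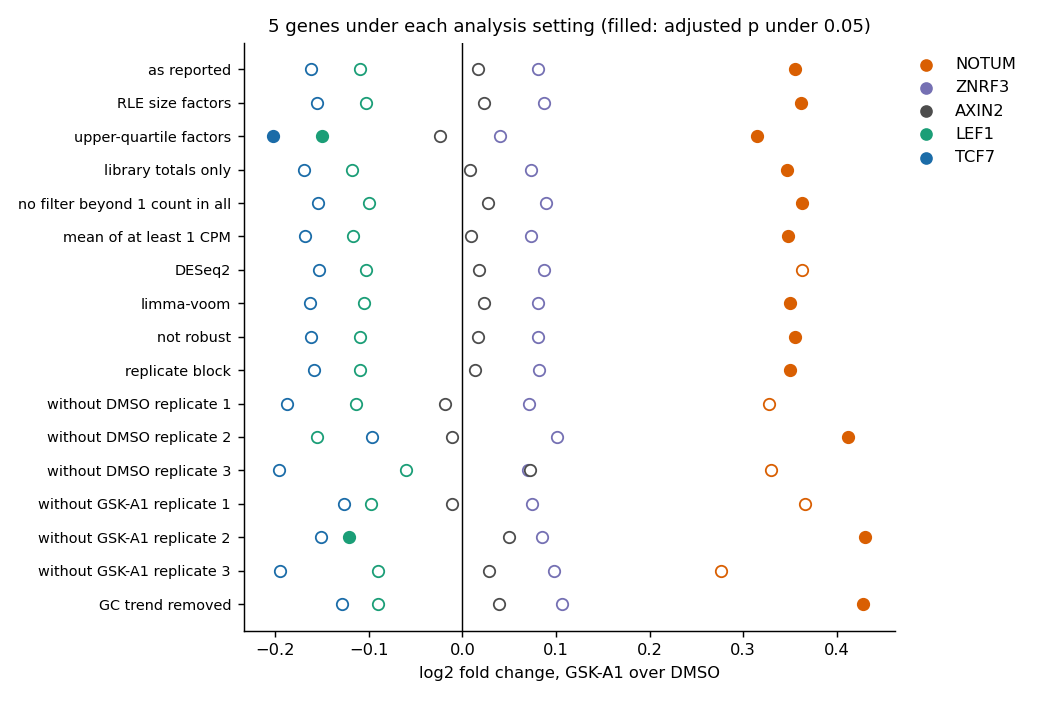
Log2 fold change of 5 genes (horizontal axis) under each analysis setting (rows), with filled points where the adjusted p was under 0.05. NOTUM stays between 0.28 and 0.43, LEF1 and TCF7 stay below 0, ZNRF3 stays above 0, and AXIN2 lies on both sides of 0.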

How the data were processed

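RNA from 6 HEK293 cultures was made into libraries with a stranded Illumina kit, per the labels' protocols. The deposited table holds the authors' raw counts per gene. Per the submitters' processing notes, cutadapt 5.1, STAR 2.7.11b, featureCounts, Subread 2.1.1, DESeq2 1.38.0 and GRCh38.p13 were used, with no role or order given. The strand setting, annotation release and filters are not given in the sources used here, so antisense and readthrough reads could enter or leave a gene's count. The 95% intervals come from the test and include the spread between libraries, while the floor for a gene without counts covers counting error only.

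Groups and replicate numbers came from the sample titles. Counts were filtered with filterByExpr (smallest count 10, smallest total 15), scaled by trimmed mean of M values (TMM) factors and tested over all genes with edgeR 4.0.16 (quasi-likelihood F test, robust) in R 4.3.3, with Benjamini-Hochberg adjustment and a threshold of 0.05. Standard errors are the log2 coefficient over the square root of F, and 95% intervals use the test's degrees of freedom. The code was tested on simulated data. Lengths, GC content, coordinates and overlaps came from GENCODE 29 on GRCh38, and RPKM used the summed exon length.

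The members and lists were chosen with earlier results of these data known. Genes named were every member and, from each other list, up to 4 called genes with the smallest p-values. WNT3, WNT3A, LGR4, LGR5, GSK3A, GSK3B, CCND1, CDH2, TCF7L1, TCF7L2, AXIN1 and NKD2, and the ratios and shares, were chosen after their values were seen. The alternatives were other library factors, filters and tests (DESeq2 1.42.0, limma-voom from limma 3.58.1), a replicate block and leaving out each library. Removing the trend on GC content (loess, span 0.3) was added after seeing the data.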

Additional observations from a re-analysis of the deposited data

How the results depend on the processing

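Log2 fold changes of ZNRF3, NOTUM, LEF1, TCF7 and CTNNB1 kept their sign under every alternative. Those of AXIN2, NKD1 and RNF43 turned to -0.024, -0.019 and -0.021 under upper-quartile factors. The members called were 1 as reported, 3 under upper-quartile factors (NOTUM, LEF1 at -0.15 and TCF7 at -0.20), 0 in DESeq2 (1 at an unadjusted p under 0.05, and NOTUM at 0.36) and 0 at an adjusted p threshold of 0.01 in edgeR. That threshold left 1871 of 3835 genes over the whole table. With 1 library left out, the calls ranged from 2163 to 4890 over all genes, from 0 to 2 among members (1 to 3 at an unadjusted p under 0.05 in edgeR) and from 13 to 35 in the pathway lists. In these fits the log2 fold change ranged from -0.019 to 0.072 for AXIN2, -0.035 to 0.064 for NKD1, -0.025 to 0.094 for RNF43, 0.28 to 0.43 for NOTUM, -0.16 to -0.060 for LEF1, -0.20 to -0.096 for TCF7 and -0.27 to 0.25 for DKK1. The cause was not tested. DESeq2 gave no adjusted p for DKK1, CDH1 and WNT9B, and DKK1 was not tested at a mean of at least 1 CPM. SP5 gave no value in any setting.

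Deviations of same-numbered libraries from their group means correlated at only 0.011, 0.019 and 0.032. Even so, 5 of 6 libraries correlated best with their own number. The labels give no pairing beyond that number, so whether the samples were paired was not settled. With the replicate number as a block, 4127 genes and 1 member were called.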

Other observations

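Several pathway genes were not expressed at a testable level in these cells. FZD10 and DKK4 had 0 counts in every library. No R-spondin gene other than RSPO2 passed the count filter, and RSPO2, with means of 1.69 ± 0.25 CPM in controls and 1.31 ± 0.15 CPM in treated cells (SD, n = 3), was not called (log2 fold change -0.39 ± 0.16, edgeR adjusted p = 0.0948). All treated libraries lay above all controls for 20.2% of all tested genes, and the coreceptor genes LRP5 and LRP6 were among them. LRP5 and LRP6 had log2 fold changes of 0.10 ± 0.04 and 0.11 ± 0.04, and neither was called (edgeR adjusted p = 0.0842 and 0.0567). These genes were chosen after their values were seen.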
